A study of Mus musculus with 29 samples.

Results

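The expressed transcriptome of control pro-B cells was described from 3 RNA-seq libraries labelled Pax5(+/+) Meox2-cre, of 29 samples examined here in the series. Per the labels and the study's methods, the cells were Kit+ B220+ CD2- IgM- pro-B cells sorted from the bone marrow of C57BL/6 mice at the age of 3 weeks. The mice carried Cre recombinase in the Meox2 locus, which gives ubiquitous deletion of loxP-flanked sequences, and served as controls for mice carrying a Pax5-Jak2 fusion allele, whose libraries are not analysed here. The sample labels and the study's own results and methods give the Pax5 genotype of these controls as wild type. A supplementary table of the study, however, lists these mice as Pax5+/-, and the profile cannot settle which is meant. All 3 libraries are of the same genotype and age, and no control group was processed in the same way, so levels are given as TPM, transcript abundances per gene length that are scaled to the same total in every library, for each library, with the mean and the standard deviation (SD) of the 3 libraries, and without a test.

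Pro-B cells are the first committed stage of the B lymphocyte lineage. They rearrange the immunoglobulin heavy chain locus with the RAG1-RAG2 recombinase and depend on signals of the IL-7 receptor and Kit. Once a heavy chain is made, it pairs with the surrogate light chain, which consists of the VpreB and λ5 proteins, and with the signalling chains Igα and Igβ to form the pre-B cell receptor. The transcription factors E2A, Ebf1 and Pax5 specify and maintain this programme.

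The tables listed 25588 entries, and 9615 of them (37.6%) had a mean above 5 TPM, the level which the study's methods require of a regulated gene. These entries held 99.3% of all TPM. A further 8307 entries were listed at 0 in all libraries. The number above 5 TPM was 9637, 9604 and 9571 in libraries 1, 2 and 3, and 9364 entries exceeded 5 TPM in every library. Of the entries above 5 TPM, 9270 were protein-coding genes and 161 long noncoding RNAs, by match to RefSeq of GRCm38.p6, in which 25476 entries were found.

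The distribution was steep. The 96 entries above 1000 TPM held 23.0% of all TPM, and the 2196 entries above 100 TPM held 74.1%. The 10 highest entries of a library held 6.44%, 6.50% and 6.48%, the 100 highest 23.3%, 23.5% and 23.4%, and the 1000 highest 57.4%, 57.7% and 57.7%. Thus, no single transcript dominated any of the libraries.

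**Figure D1:**
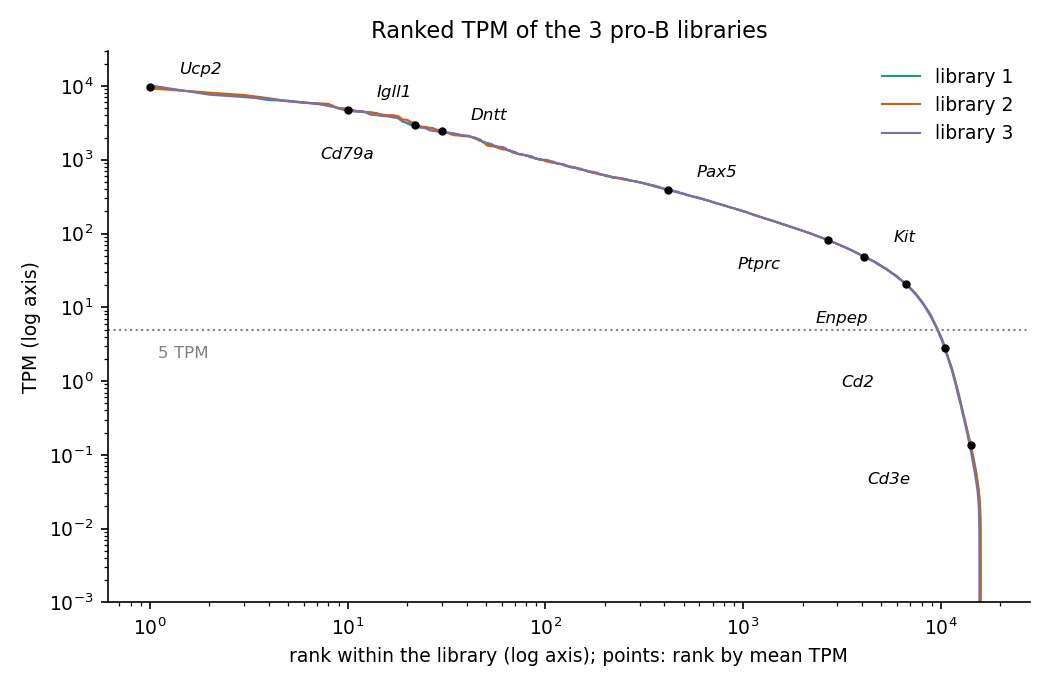
TPM of every entry (log axis) against its rank in the library (log axis), 1 line per library, with points for the mean of named genes and a dotted line at 5 TPM. The 3 lines lie on each other, the pro-B genes Igll1, Cd79a and Dntt stand among the 30 highest entries, and Cd2 and Cd3e lie below 5 TPM.

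The highest entry in each library was Ucp2, which encodes a mitochondrial carrier protein, with 9675, 9260 and 10207 TPM. It exceeded the second entry, the ribosomal stalk protein gene Rplp1 (7906, 8106 and 7609 TPM), in all 3 libraries. Rpl8, Actb, Eef2, Crip1, Rack1 and Rps26 were also among the highest entries, with means between 7287 ± 249 TPM for Rpl8 and 4843 ± 202 TPM for Rps26 (SD, n = 3). Actb encodes β-actin, Eef2 a translation elongation factor, Crip1 a small LIM domain protein and Rack1 a ribosome-bound scaffold protein.

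Among the 20 highest entries, 3 were B lineage transcripts. Igll1, which encodes the λ5 chain of the surrogate light chain, ranked 10 by its mean, with 4629, 4581 and 4949 TPM. Vpreb3, which encodes a VpreB-like protein of B cell precursors, measured 4476, 4484 and 5048 TPM. Ighm, the constant region of the μ heavy chain, measured 4267, 4381 and 4535 TPM. Library by library, both Igll1 and Vpreb3 were above Ighm. Across libraries, all Igll1 values lay above all Ighm values, whereas the range of Vpreb3 overlapped with those of both. Rps9, Rpl4, Rpl13a, Rps14, Tubb5 (β-tubulin), Pfn1 (profilin), Rplp0 and Hsp90ab1 (a cytosolic chaperone) were also among the 20 highest entries, from 4355 ± 312 TPM for Rps9 to 3121 ± 60.5 TPM for Hsp90ab1.

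The promoters of the leading surrogate light chain and receptor genes are shown as the sequence context of the transcripts that mark this cell type (RefSeq, GRCm38.p6, 250 bases before to 50 bases after the annotated start, 5′ to 3′ on the gene's strand). Capitals mark the E-box CAGGTG, the kind of site bound by E2A, or the octamer ATTTGCAT, the kind of site bound by Oct proteins, each searched on both strands together with CCCNNGGG, the core of the Ebf1 motif. The first is Igll1 (chr16:16863936-16864235, minus strand), with an E-box 8 bases before the start, the second Vpreb1 (chr16:16869206-16869505, minus strand), with an E-box 88 bases before the start, the third Cd79a (chr7:24897247-24897546, plus strand), with an E-box 154 bases before the start, and the fourth Vpreb3 (chr10:75948050-75948349, plus strand), with an octamer 45 bases before the start.
Igll1: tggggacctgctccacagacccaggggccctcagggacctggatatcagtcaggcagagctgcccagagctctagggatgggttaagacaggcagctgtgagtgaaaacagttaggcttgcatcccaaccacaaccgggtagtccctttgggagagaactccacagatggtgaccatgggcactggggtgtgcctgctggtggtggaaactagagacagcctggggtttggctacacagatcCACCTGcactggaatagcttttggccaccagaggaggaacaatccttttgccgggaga
Vpreb1: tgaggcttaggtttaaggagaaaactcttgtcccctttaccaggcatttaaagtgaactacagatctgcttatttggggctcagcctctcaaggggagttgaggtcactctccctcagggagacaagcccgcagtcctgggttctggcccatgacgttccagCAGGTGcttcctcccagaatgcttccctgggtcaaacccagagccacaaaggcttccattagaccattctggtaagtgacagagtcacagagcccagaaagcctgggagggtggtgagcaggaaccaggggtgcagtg
Cd79a: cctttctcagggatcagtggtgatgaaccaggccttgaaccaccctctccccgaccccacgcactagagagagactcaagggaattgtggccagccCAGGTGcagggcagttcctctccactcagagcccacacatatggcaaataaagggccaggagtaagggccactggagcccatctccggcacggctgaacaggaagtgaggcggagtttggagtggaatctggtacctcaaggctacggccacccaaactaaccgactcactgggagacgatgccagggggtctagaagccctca
Vpreb3: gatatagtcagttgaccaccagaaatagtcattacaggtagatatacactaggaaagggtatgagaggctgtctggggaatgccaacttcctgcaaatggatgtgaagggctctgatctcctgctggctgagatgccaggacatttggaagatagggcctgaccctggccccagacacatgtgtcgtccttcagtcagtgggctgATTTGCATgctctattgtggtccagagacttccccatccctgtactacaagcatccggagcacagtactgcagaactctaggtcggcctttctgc

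The E-box letters were present in promoters of 6 of the 16 pro-B genes with a RefSeq promoter (Blnk, Cd79a, Igll1, Rag1, Vpreb1 and Vpreb2). Counted as promoters, this was 31.6% of 19, compared with 20.2% of all 32851 promoters and 17.0% of the 9678 promoters of entries above 5 TPM. The octamer was found in 10.5%, 1.74% and 1.13% of these sets, and CCCNNGGG in 21.1%, 13.7% and 18.0%. The counts among the pro-B genes are small, and a match of letters is not evidence that a factor binds there.

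All 22 genes chosen as markers of pro-B cells were expressed above 5 TPM, compared with 37.6% of all entries. The same 37.6% is the background for the counts above 5 TPM in all lists below. Their median was 367 TPM, 18 of them exceeded 100 TPM, and 8 stood among the 100 highest entries. Together they held 2.62% of all TPM. Thus, each library carried all of these markers, the lowest single value being 15.3 TPM for Enpep.

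Genes of the gate proteins were transcribed at different levels. Ptprc, which encodes B220 and the other forms of CD45, measured 83.5, 78.7 and 81.8 TPM, and Kit, the stem cell factor receptor, 48.4, 52.0 and 44.9 TPM. Cd2, against which the cells were selected, was at 1.35, 4.04 and 2.94 TPM, below 5 TPM in each library. Ighm was among the 20 highest entries although the cells were selected for lack of IgM on their surface, and Ighd measured 40.3, 37.9 and 37.5 TPM.

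The genes of the pre-B cell receptor were the most abundant of the pro-B genes. Next to Igll1 and Vpreb3, Cd79a, which encodes Igα, measured 2908, 2781 and 3202 TPM and Cd79b, which encodes Igβ, 2006, 1896 and 2207 TPM. Vpreb1 measured 2645, 2545 and 2746 TPM, and its near-identical copy Vpreb2 measured 368, 318 and 346 TPM. The split between Vpreb1 and Vpreb2 is uncertain, because 34.6% of the 50-base windows of each coding transcript occur more than once in the mouse genome (mm9), and reads that map to both copies would not be assigned. Igll1, Vpreb1, Vpreb3, Cd79a and Cd79b were each lowest in library 2 except for Vpreb3, whose libraries 1 and 2 were nearly equal.

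Of the 19 genes of the surrogate light chain and pre-B cell receptor signalling, all exceeded 5 TPM, and their median was 426 TPM. The adaptor Blnk was at 1285, 1118 and 1291 TPM. The adaptor Pik3ap1 had a mean of 667 TPM, the kinase Syk 528 TPM, the PI3 kinase subunit Pik3cd 426 TPM and the phospholipase Plcg2 368 TPM. These 4 genes are given in addition to the 5 highest members of the list and were chosen after their values were seen. Among the Src family kinases of the list, Blk (140 TPM) and Lyn (117 TPM) were above Fyn (78.1 TPM), and Btk was at 102 TPM, again chosen after the values were seen.

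Genes of V(D)J recombination were expressed, with 14 of 15 above 5 TPM. Dntt encodes terminal deoxynucleotidyl transferase, which adds nucleotides at the V-D-J junctions, and measured 2570, 2219 and 2506 TPM. Rag1 was at 521, 527 and 517 TPM, whereas Rag2 was at 75.7, 69.2 and 71.5 TPM. The Rag1 libraries all lay above the Rag2 libraries, and Rag1 was among the steadiest pro-B genes with an SD of 5.18 TPM. The DNA end-binding protein gene Xrcc6 had a mean of 575 ± 23.9 TPM and the chromatin protein gene Hmgb2 177 ± 18.4 TPM. The 1 member below 5 TPM, named after its value was seen, was the nuclease gene Dclre1c (Artemis) at 3.49 TPM.

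The remaining pro-B genes encode surface proteins and receptors. Cd24a, which encodes the heat-stable antigen, measured 1647, 1710 and 1556 TPM. Cd93 measured 286, 270 and 295 TPM, Ly6d 282, 232 and 273 TPM, Spn (CD43) 246, 211 and 231 TPM, and Bst1 (BP-3) 181, 164 and 182 TPM. Il7r, the IL-7 receptor α chain, measured 138, 138 and 128 TPM. The lowest pro-B gene was Enpep, which encodes the BP-1 antigen, at 22.2, 23.6 and 15.3 TPM, and it was also the one with the widest range among the libraries.

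Of the 29 transcription factor genes of the B lineage list, 28 were above 5 TPM and 20 above 100 TPM. Tcf3, which encodes E2A, was highest with 1343, 1257 and 1451 TPM, followed by the Oct coactivator gene Pou2af1 with 994, 934 and 1001 TPM and by Spib with 640, 608 and 738 TPM. Id3, an inhibitor of E proteins, measured 670, 572 and 698 TPM. Pax5 itself was at 394, 376 and 397 TPM and Ebf1 at 333, 353 and 352 TPM. The Pax5 and Ebf1 libraries did not overlap, with Pax5 higher in each.

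Other members with high levels were Myb (615 ± 12.6 TPM), Lef1 (534 ± 29.3 TPM), Ets1 (463 ± 10.8 TPM), Ikzf1 (381 ± 8.42 TPM) and Sox4 (318 ± 4.45 TPM). Erg (296 ± 27.4 TPM), Irf8 (245 ± 7.06 TPM), Foxo1 (197 ± 9.88 TPM), Elf1 (167 ± 2.80 TPM), Irf4 (163 ± 11.3 TPM), Spi1 (159 ± 9.57 TPM), Bach2 (137 ± 5.97 TPM) and Bcl11a (109 ± 8.23 TPM) followed. Myc, with 177, 269 and 193 TPM, had a larger SD relative to its mean (213 ± 49 TPM) than any of these 13 genes.

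The E protein genes Tcf12 and Tcf4 were at 94.5 ± 2.16 and 87.7 ± 3.27 TPM, and Tcf3 was more than 10 times higher than either. Runx1 (69.2 ± 0.232 TPM), Mef2c (64.3 ± 2.89 TPM), Ikzf3 (38.4 ± 3.05 TPM), Pou2f2 (34.8 ± 2.93 TPM) and Pou2f1 (25.7 ± 1.44 TPM) were expressed at lower levels. Id2 was near the threshold with 4.59, 5.08 and 5.65 TPM, and Ikzf2 (Helios) was the 1 member below it, with 0.607, 0.466 and 0.639 TPM. Hence the 3 Ikaros family genes of the list were expressed in the order Ikzf1, Ikzf3 and Ikzf2 in each library.

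Pax5 was the 1 expressed member of the Pax and Meox families. Pax7 was at 1.87, 0.999 and 1.63 TPM and Pax2 at 0.472, 0.649 and 0.995 TPM. Pax1, Pax3, Pax6, Pax8 and Pax9 had means of 0.0490 TPM or less, and Pax4 and Meox1 were listed at 0 in all libraries. Meox2, the locus that carries the Cre gene in these mice, was at 0, 0 and 0.147 TPM, the last being 3 recovered reads. The Cre transcript itself has no entry in the tables.

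Genes that start later in B cell development were lower. Of 15 such genes, 8 (53.3%, compared with 37.6% of all entries) were above 5 TPM and 1 above 100 TPM, and their median was 6.08 TPM. The highest was Tnfrsf13c, the BAFF receptor gene, with 120, 107 and 133 TPM, and Cd22 was at 47.1, 65.9 and 57.4 TPM. Cd74, the invariant chain gene, had a mean of 44.9 ± 2.11 TPM and Ccr7 44.3 ± 4.59 TPM. Fcer2a and Cr2, the genes for CD23 and CD21 of mature B cells, were at 0.20 and 0.10 TPM and were chosen after their values were seen.

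Plasma cell markers were divided. Mzb1, which encodes an endoplasmic reticulum protein that assists IgM assembly, was among the 100 highest entries with 2081, 2118 and 2364 TPM. Slamf7 (134 ± 7.85 TPM), Xbp1 (101 ± 1.03 TPM) and Sdc1 (32.4 ± 1.87 TPM) were also above 5 TPM. In contrast, Prdm1, the gene of the plasma cell regulator Blimp-1, was at 0.732, 0.843 and 0.935 TPM.

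**Figure D2:**
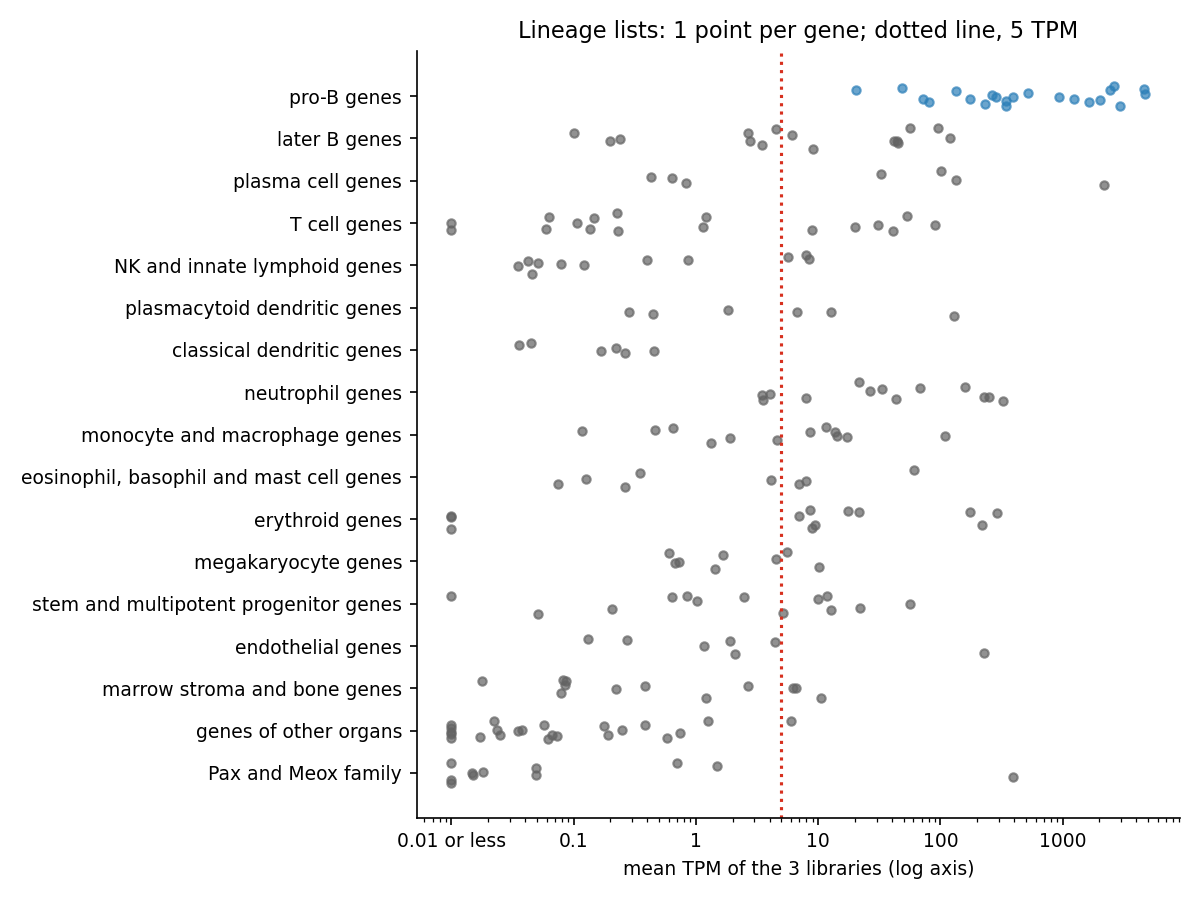
Mean TPM of the 3 libraries (log axis) for every member of the lineage lists, 1 point per gene, with genes at 0.01 TPM or less drawn at the left edge and a dotted line at 5 TPM. All 22 pro-B genes lie to the right of the line, whereas the classical dendritic cell list has no gene there.

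Immunoglobulin entries held 0.670%, 0.687% and 0.684% of all TPM, and 87 of 393 entries were above 5 TPM. The heavy chain constant genes summed to 4351, 4457 and 4621 TPM, nearly all from Ighm. The 183 heavy chain V gene entries summed to 865, 1079 and 990 TPM, with 65 of them above 5 TPM, and Ighv14-2 (84.2, 82.2 and 94.05 TPM) was the highest. In contrast, of 160 κ light chain V gene entries 1 was above 5 TPM, although Igkc, the κ constant region, measured 240, 300 and 264 TPM. Of all entries, 37.6% exceeded 5 TPM. The heavy chain V count is near that share and does not set these genes apart, whereas the κ V count lies far below it. The count over all immunoglobulin entries was also below that share.

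The J and D segments call for caution, as they are shorter than or similar to the 50-base reads that a supplementary table of the study lists. Ighj1, Ighj3, Ighj4 and Ighj2 had means of 174 ± 22.2, 148 ± 16.1, 116 ± 23.0 and 86.8 ± 6.29 TPM. The D segments Ighd1-1, Ighd2-4 and Ighd4-1 followed with 109 ± 33.1, 87.0 ± 10.7 and 77.9 ± 12.8 TPM. However, Ighd2-4 is 17 bases long, and its 91.1, 95.1 and 74.9 TPM stand for 13, 14 and 11 reads. Per-length values of these segments are therefore not comparable with those of whole genes.

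T cell receptor entries were almost empty. Of 258 entries 241 were listed at 0 in all libraries and none was above 5 TPM, and their sum was 0.00128%, 0.00136% and 0.00129% of all TPM. The highest were Trbc2 (6.02, 4.84 and 2.18 TPM), Trac (2.17, 3.71 and 2.60 TPM) and the J segment Trbj2-7, which had 0, 1 and 2 reads. Bcl11b, a regulator of T cell commitment, and Cd3g were listed at 0 in all libraries.

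Of 17 T cell genes 6 (35.3%) were above 5 TPM, which is near the 37.6% of all entries. The kinase gene Lck measured 82.2, 99.5 and 87.5 TPM, the adaptor gene Lat 55.3, 56.1 and 48.6 TPM, Tcf7 42.7, 36.2 and 44.2 TPM, Thy1 32.7, 27.5 and 32.4 TPM, and the kinase gene Zap70 17.4, 21.7 and 20.6 TPM. The sixth, Cd5, had a mean of 8.88 TPM. The defining genes of the T cell receptor complex were near 0, with Cd3d at 0.232 TPM and Cd3e at 0.135 TPM. Cd5, Cd3d and Cd3e were chosen after their values were seen. None of the 6 expressed genes spanned more than 2-fold among the libraries.

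Markers of other blood lineages were present at low levels in most cases. The natural killer and innate lymphoid list had 3 of 11 genes (27.3%, compared with 37.6% of all entries) above 5 TPM. These were Nkg7 (8.43 ± 1.20 TPM), Klrb1c (7.99 ± 0.496 TPM) and Prf1 (5.61 ± 0.544 TPM). The plasmacytoid dendritic list had 3 of 6, with Bst2, which is also induced by interferon, at 119, 141 and 126 TPM, Ly6c2 at 13.3, 15.99 and 8.70 TPM, and Cox6a2 at 8.13, 7.36 and 4.57 TPM. Siglech, which defines plasmacytoid dendritic cells, was at 3.79, 0.605 and 1.12 TPM. None of 6 classical dendritic genes exceeded 5 TPM, and Itgax was highest at 0.936, 0.267 and 0.161 TPM.

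Neutrophil genes were more abundant and less even. All 13 were above 1 TPM, 10 above 5 TPM and 4 above 100 TPM. S100a9 measured 239, 568 and 171 TPM, Ngp 182, 406 and 165 TPM, S100a8 167, 401 and 108 TPM, Camp 121, 248 and 110 TPM, and Ltf 47.7, 111 and 46.7 TPM. These genes, which encode calprotectin subunits and granule proteins, were highest in library 2, as were 7 of the 10 members above 5 TPM. The other 3, Mpo (55.7, 42.2 and 32.0 TPM), Prtn3 (25.2, 24.9 and 14.3 TPM) and Ctsg (9.07, 8.68 and 6.15 TPM), which encode myeloperoxidase and granule proteases, were highest in library 1. However, Elane (23.3, 35.8 and 20.3 TPM), which also encodes a granule protease, was among the 7 that were highest in library 2. It was chosen after its value was seen. All 10 were lowest in library 3. Summed over the list, the values were 898, 1926 and 698 TPM, a 2.76-fold range. Among all 9528 genes above 5 TPM, without immunoglobulin and T cell receptor entries, 2738 were highest in library 2 and 3411 lowest in library 3. In bulk libraries such as these, fewer cells of a type and less RNA per cell cannot be told apart, and the part of neutrophils or their RNA in the levels of other genes was not tested.

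Monocyte and macrophage genes followed the same library to a lesser extent, with list sums of 154, 232 and 161 TPM and 6 of 12 genes above 5 TPM. Lyz2 (lysozyme) was at 93.0, 144 and 87.1 TPM, Itgam (CD11b) at 13.5, 21.2 and 16.8 TPM, and the complement genes C1qa, C1qc and C1qb had means of 14.3 ± 3.79, 13.8 ± 3.68 and 11.6 ± 1.12 TPM. In the eosinophil, basophil and mast cell list, 3 of 8 genes (37.5%) exceeded 5 TPM, as did 37.6% of all entries. The eosinophil granule genes Prg2 (34.7, 81.7 and 64.4 TPM) and Epx (3.63, 9.27 and 7.96 TPM) were lowest in library 1, whereas the basophil protease gene Prss34 (12.1, 5.79 and 5.91 TPM) was highest there.

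The erythroid list showed another pattern. Of its 14 genes 12 had an entry, and 9 of these were above 5 TPM. All 9 were lowest in library 3 and 7 were highest in library 1. Of the 9528 genes above 5 TPM, 3411 were lowest in library 3 and 3476 highest in library 1. Car2 was at 348, 294 and 236 TPM, Alas2, which encodes the erythroid enzyme of heme synthesis, at 213, 263 and 185 TPM, and Slc4a1 (band 3) at 197, 197 and 132 TPM. The erythroid transcription factor gene Klf1 was at 33.1, 17.7 and 13.5 TPM. The list summed to 868, 820 and 595 TPM. The globin genes Hba-a1, Hba-a2 and Hbb-bs were listed at 0 in all libraries, whereas Hbb-b2, which is in no list and was chosen after its value was seen, measured 2705, 3475 and 2315 TPM. As globin copies are near-identical in sequence and reads mapping to several copies would not be assigned, the level of single globin genes is uncertain, and a 0 does not show absence.

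Markers of other marrow cells were at lower levels, with 1 exception. Of 8 megakaryocyte genes 2 exceeded 5 TPM, Pf4 (10.2 ± 0.478 TPM) and Gp9 (5.56 ± 1.30 TPM). Of 12 genes of stroma and bone 3 did, the collagen genes Col1a1 (5.83, 12.2 and 13.9 TPM) and Col1a2 (3.47, 7.36 and 8.74 TPM) and Sparc (6.25 ± 0.885 TPM). Of 7 endothelial genes 1 did, Egfl7 with 227, 216 and 234 TPM, whereas Cdh5, which encodes VE-cadherin, was at 1.17, 1.39 and 0.959 TPM.

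Stem and multipotent progenitor genes were represented by 6 of 13 above 5 TPM (46.2%, compared with 37.6% of all entries). The highest were Lmo2 (56.3 ± 2.21 TPM), Cd27 (22.0 ± 1.96 TPM), Flt3 (16.6, 10.3 and 11.3 TPM), Meis1 (11.9 ± 0.997 TPM) and Ly6a (10.1 ± 1.91 TPM). Mecom was listed at 0 in all libraries. Of 23 genes of other organs 1 was above 5 TPM, the keratin gene Krt10 with 5.94 ± 0.492 TPM, and Ttr, Gcg, Ins2, Apoa1 and Fabp2 were listed at 0 in all libraries. Neither olfactory, vomeronasal nor taste receptors reached 5 TPM, with 1445 of 1485 entries at 0 in all libraries.

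Among the signalling genes, all 19 of the IL-7 receptor and JAK-STAT list were above 5 TPM, with a median of 57.1 TPM. The kinase gene Pim1, a target of STAT5, was highest at 243, 226 and 228 TPM, followed by Crlf2 (150 ± 6.33 TPM), Jak1 (149 ± 4.27 TPM), Il7r (134 ± 5.59 TPM) and Jak3 (122 ± 11.4 TPM). Jak2, the kinase gene of the fusion studied here, was lower than Jak1 and Jak3 in each library, with 21.6, 18.4 and 19.2 TPM, and Stat5a (57.04, 56.6 and 57.1 TPM) and Stat5b (57.6, 55.4 and 58.3 TPM) were alike in level. The values of these 3 genes were chosen after they were seen. Of 18 receptor genes for cytokines and growth factors, 14 were above 5 TPM and none above 100 TPM. Ifngr1 (90.2 ± 3.95 TPM), Tgfbr2 (89.6 ± 1.75 TPM), Il3ra (84.0 ± 3.25 TPM), Kit and Ifnar1 (46.0 ± 2.70 TPM) were the highest.

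Of the chemokine receptor and adhesion genes, 12 of 15 exceeded 5 TPM. Cxcr4, the receptor for the marrow chemokine Cxcl12, was highest at 530, 569 and 521 TPM, and further expressed genes were Selplg (253 ± 23.1 TPM), Itga4 (118 ± 8.85 TPM) and Itgal (73.1 ± 5.23 TPM). Of the Notch receptors and targets, 6 of 9 were above 5 TPM, with Hes1 at 171 ± 8.50 TPM, Notch1 at 91.7 ± 11.7 TPM, Heyl at 69.0, 83.9 and 107 TPM, Nrarp at 40.1 ± 3.73 TPM and Hes5 at 32.2 ± 2.34 TPM.

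The cells expressed a proliferation programme. All 29 genes of DNA replication and mitosis were above 5 TPM, with a median of 319 TPM. Of these, 20 were highest in library 1, compared with 3476 of the 9528 genes above 5 TPM. The list summed to 12669, 12271 and 12237 TPM and thus varied little among the libraries. Next to Tubb5, Pcna, the replication clamp gene, measured 725, 716 and 731 TPM, Mcm5 634 ± 7.80 TPM, Mcm3 584 ± 16.2 TPM and Rrm2, a subunit gene of ribonucleotide reductase, 566 ± 26.7 TPM. Of the D cyclins, Ccnd3 (1432, 1423 and 1534 TPM) was higher than Ccnd2 (138, 179 and 125 TPM) in each library, and Cdk4 was at 1059, 1123 and 1004 TPM. The Cdk inhibitor genes Cdkn2d (323 ± 25.5 TPM) and Cdkn1b (207 ± 5.52 TPM) were also among the 5 highest of that list, in which 10 of 13 genes exceeded 5 TPM.

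The Bcl2 family, which controls apoptosis, had 9 of 14 genes above 5 TPM. The highest were the proapoptotic genes Bak1 (361 ± 12.0 TPM) and Bax (232 ± 8.55 TPM), followed by the prosurvival genes Mcl1 (190 ± 2.15 TPM) and Bcl2l1 (133 ± 8.55 TPM) and by Bid (79.7 ± 3.89 TPM). Bcl2 itself had a mean of 3.60 TPM and was chosen after its value was seen.

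Chromatin regulators were expressed, with 15 of 15 genes of DNA methylation and Polycomb and 10 of 11 of cohesin and Ctcf above 5 TPM. Uhrf1 (592 ± 35.8 TPM) and Dnmt1 (401 ± 22.5 TPM), which maintain DNA methylation, were the highest of the first list, followed by the Polycomb genes Ezh2 (290 ± 14.2 TPM), Cbx2 (125 ± 6.63 TPM) and Suz12 (94.4 ± 5.75 TPM). Of the second list, Rad21 (380 ± 14.2 TPM) and Ctcf (222 ± 6.43 TPM) exceeded Smc1a (171 ± 3.83 TPM), Smc3 (100 ± 3.60 TPM) and Stag2 (80.4 ± 3.07 TPM).

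The major histocompatibility complex differed by class. All 7 class I genes exceeded 5 TPM, among them B2m (2639, 2865 and 2638 TPM), H2-K1 (1490 ± 56.7 TPM), H2-D1 (566 ± 12.0 TPM), Tapbp (265 ± 6.80 TPM) and Tap1 (239 ± 2.52 TPM). Of 10 class II genes 8 exceeded 5 TPM, with H2-Ab1 highest at 250, 204 and 229 TPM, followed by H2-Ob (113 ± 4.54 TPM), H2-Oa (67.4 ± 9.33 TPM), Cd74 and H2-DMa (23.5 ± 2.85 TPM). Interferon-induced genes had 10 of 17 above 5 TPM. Of these 10, 8 were lowest in library 1, compared with 2560 of the 9528 genes above 5 TPM. Examples were Ifi27l2a (200, 279 and 280 TPM), Isg15 (44.6, 60.9 and 54.5 TPM) and Stat2 (31.5, 32.2 and 37.4 TPM).

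Immediate early genes, which respond to cell handling as well as to signals, had 12 of 18 above 5 TPM. Jund (318 ± 23.9 TPM), Btg2 (227 ± 11.6 TPM), Zfp36 (205 ± 4.35 TPM), Ier2 (138 ± 7.64 TPM) and Junb (76.1 ± 5.19 TPM) were the highest, and Fos, chosen after its value was seen, was at 4.53 TPM. The list summed to 1160, 1115 and 1181 TPM and thus varied little among the libraries.

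Housekeeping families held a large share of the transcriptome. The 88 cytosolic ribosomal protein entries held 7.68%, 7.96% and 7.26% of all TPM (mean 7.63% ± 0.350), and 9 of the 20 and 18 of the 100 highest entries belonged to them. The respiratory chain and ATP synthase followed with 3.72% ± 0.119, led by Atp5b (2239 ± 88.5 TPM), Cox6a1 (2024 ± 99.3 TPM) and Cox4i1 (1906 ± 40.5 TPM). Translation factors held 2.31% ± 0.0735, led by Eef2, Eef1a1 (2649 ± 238 TPM) and Eif3f (1288 ± 107 TPM). Proteins of the spliceosome and RNA binding held 1.66% ± 0.0298, led by Hnrnpul1, Snrpb and Hnrnpab, with means between 1159 and 1083 TPM.

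The proteasome (1.25% ± 0.0381; Psmb8, Psmb4 and Psmb1), chaperones (1.07% ± 0.0407; Hsp90ab1, Cct5 and Cct2) and mitochondrial ribosomal proteins (0.931% ± 0.0390; Mrpl52, Mrpl54 and Mrpl34) held about 1% each. Histones held 0.695% ± 0.0286, led by H2afx (2069 ± 62.0 TPM), H2afy (1640 ± 116 TPM) and H3f3b (835 ± 41.9 TPM). Class I and class II histocompatibility genes held 0.583% ± 0.0157 and tubulins 0.528% ± 0.00420, with Tubb5 far above Tubb4b (549 ± 12.4 TPM) and Tuba1b (299.8 ± 18.2 TPM). Library 2 had the highest share for 9 families, namely cytosolic and mitochondrial ribosomal proteins, the respiratory chain, translation factors, the proteasome, chaperones, histocompatibility genes, immunoglobulin and T cell receptor entries. No mitochondrially encoded gene has an entry in the tables.

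**Figure D3:**
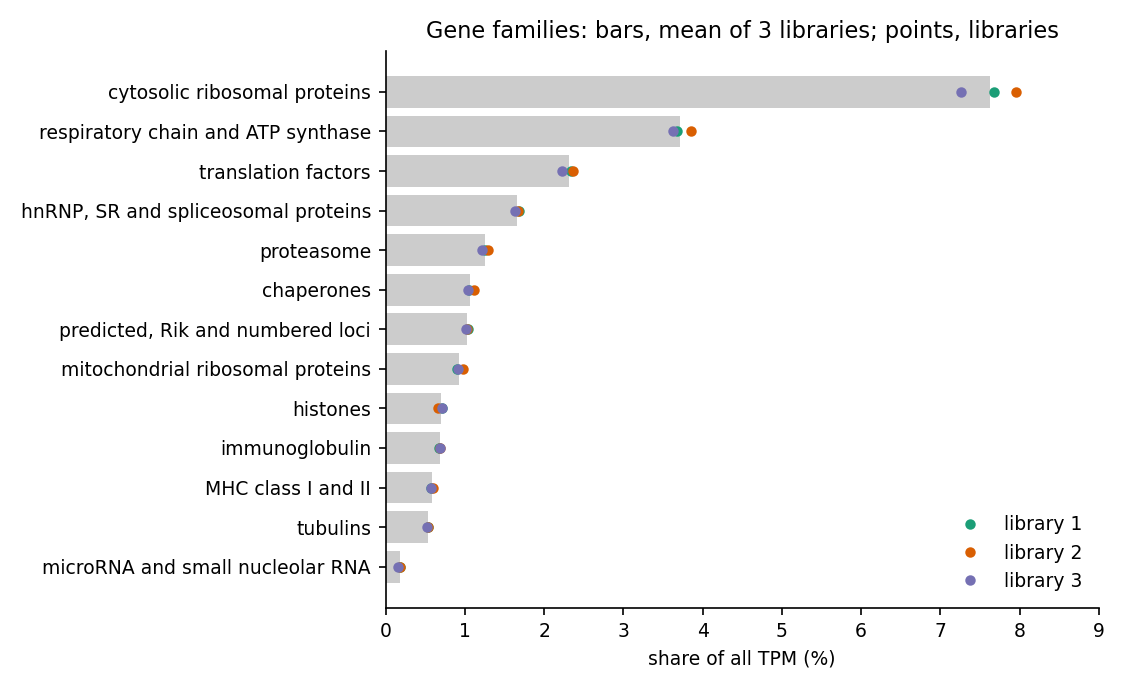
Share of all TPM (%, linear axis from 0) held by gene families, with bars for the mean of the 3 libraries and points for each library. Cytosolic ribosomal proteins lead with 7.63%, and their points span 7.26% to 7.96%.

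Predicted, Riken and numbered loci made up 3559 entries, of which 290 exceeded 5 TPM, and together they held 1.03% ± 0.0120. The highest was 2410006H16Rik with 527, 535 and 498 TPM, followed by 0610010K14Rik (319 ± 22.6 TPM), 2410015M20Rik (261 ± 18.9 TPM), 2900026A02Rik (224 ± 10.2 TPM), BC005537 (206 ± 12.2 TPM), 1110038B12Rik (205 TPM), AB124611 (192 TPM), 9530068E07Rik (159 TPM), 1110004F10Rik (154 TPM) and E130309D02Rik (153 TPM). Of the long noncoding RNAs, 2410006H16Rik, Gas5 (382, 359 and 318 TPM) and Lockd (308, 287 and 285 TPM) were the most abundant. Gas5, which hosts small nucleolar RNAs, and Lockd were chosen after their values were seen.

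Several well-known abundant genes were low in these tables. Of the glycolysis list 16 of 18 genes exceeded 5 TPM, with Ldha (663, 810 and 641 TPM), Pkm (549 ± 4.02 TPM), Gpi1 (414 ± 8.35 TPM), Tpi1 (342 ± 23.6 TPM) and Aldoa (329 ± 36.8 TPM) as the highest. Of the 16, 12 were highest in library 2, compared with 2738 of the 9528 genes above 5 TPM. However, Gapdh was at 20.8 TPM, Pgk1 at 15.9 TPM and Pgam1 at 5.67 TPM. Similarly, Actg1, which encodes γ-actin, was at 19.4 TPM, whereas the other genes of the actin list that follow Actb and Pfn1 were at 2249 ± 126 TPM for Coro1a, 2197 ± 37.8 TPM for Cfl1 and 2082 ± 18.2 TPM for Tmsb4x. Of the 50-base windows of their coding transcripts, 87.2% for Gapdh, 92.9% for Pgk1, 91.5% for Pgam1 and 92.3% for Actg1 occur more than once in the mm9 genome, compared with 13.5% for Actb and 0% for Tmsb4x. These genes were chosen after their values were seen.

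Within the cytosolic ribosomal proteins, the level did not follow the repeated share in 1 direction. The 41 entries with at least 50% repeated windows had a median of 84.7 TPM and the 40 entries with 5% to 50% a median of 304 TPM, but the 5 entries with less than 5% had the lowest median, 19.2 TPM, with values from 1.26 to 6473 TPM. Rpl23a, with 96.6% repeated windows, was at 5.66 TPM, whereas Rplp1, with 62.4%, was the second highest entry of all. Where reads mapping to several copies were not assigned, the levels of such genes are understated. None of the 22 pro-B genes had 50% or more repeated windows.

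The 3 libraries were alike across genes. Among the 9528 genes above 5 TPM, without immunoglobulin and T cell receptor entries, Pearson's r of log2(TPM + 0.5) was 0.993 for each of the 3 pairs, given as a description across genes, which are not independent replicates. The median SD of the log2 values was 0.080. It was 0.11 for genes between 5 and 20 TPM, 0.075 between 20 and 100 TPM, 0.068 between 100 and 1000 TPM and 0.070 above 1000 TPM. Set against counting error alone, the χ2 value of the recovered reads across the libraries exceeded its 95% quantile for 45.6% of 10943 genes with at least 100 reads. This value served only to look for libraries deposited more than once.

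Few genes differed by more than 2-fold between the highest and the lowest library on the TPM + 0.5 scale, namely 89 (0.934%). Of these, 35 were microRNA or small nucleolar RNA entries and 37 rested on fewer than 100 reads in all libraries together. Of the remaining 52 genes, 26 were highest in library 2, 21 in library 1 and 5 in library 3, and 37 were lowest in library 3. Among all 9528 genes, 2738 were highest in library 2, 3476 in library 1 and 3314 in library 3, and 3411 were lowest in library 3. Of the genes above 5 TPM, 6 of 10 neutrophil, 4 of 9 erythroid and 3 of 3 eosinophil, basophil and mast cell genes were among the 89. None of the 22 pro-B genes was, but at a share of 0.934% this does not set them apart. Their median ratio was 1.12, compared with 1.11 for all entries above 5 TPM.

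**Figure D4:**
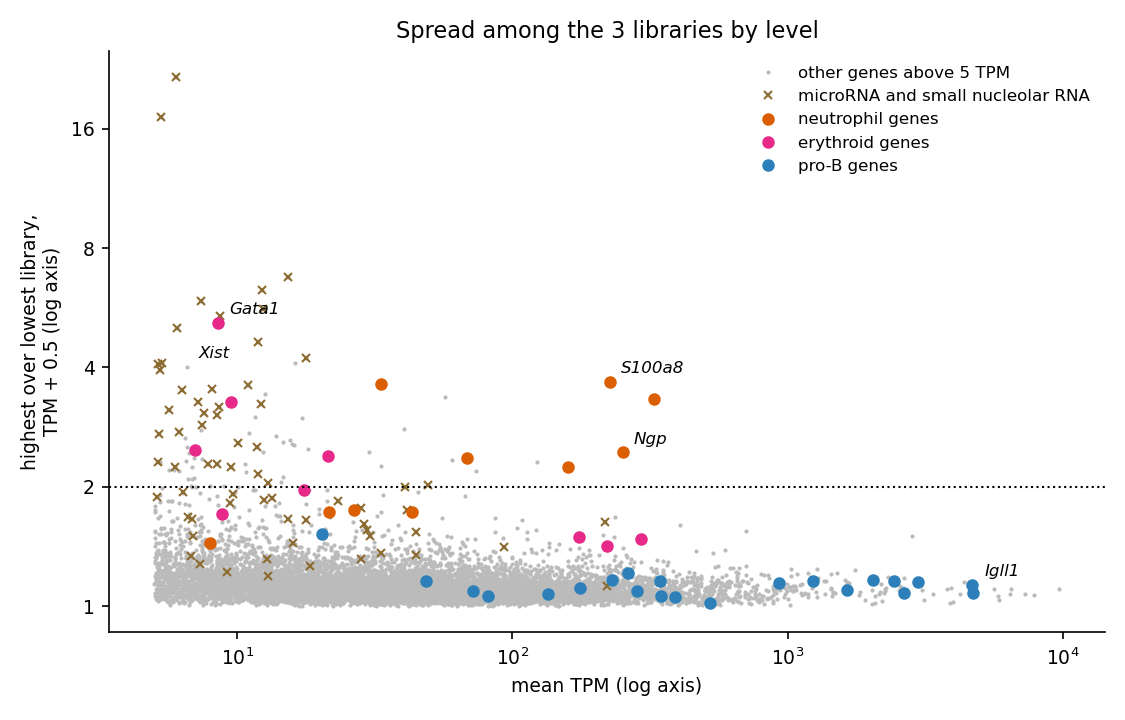
Ratio of the highest to the lowest library on the TPM + 0.5 scale (log axis) against mean TPM (log axis) for the 9528 genes above 5 TPM, with a dotted line at 2-fold. Several neutrophil and erythroid genes lie above the line at levels where most genes are near 1. All 22 pro-B genes lie below it, as do most other genes, and small RNA entries spread at low TPM.

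The 20 widest ratios contained 15 small RNA entries with up to 35 reads in all. The 2 widest were Snord42a (0, 3 and 4 reads) and Mir191 (5, 0 and 5 reads). The others were Snord96a, Snord49b, Mir6935, Snord65, Snord33, Mir7036, Snord12, Snord83b, Mir7240, Snord2, Mir1982, Mir6973a and Snord100. The ratios of these 15 entries rested on 7 to 35 reads each, so that a single read moved them.

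Of these microRNA entries, 3 are shown to make clear how short they are (RefSeq, GRCm38.p6, hairpins 5′ to 3′, capitals mark the seed, bases 2 to 8 of each annotated mature arm). Mir191 (chr9:108568319-108568392, plus strand, 74 bases) lies within the span of Dalrd3, Mir6935 (chr11:120347350-120347413, minus strand, 64 bases) within that of Actg1, and Mir7036 (chr5:137296624-137296688, minus strand, 65 bases) within that of Srrt.
Mir191: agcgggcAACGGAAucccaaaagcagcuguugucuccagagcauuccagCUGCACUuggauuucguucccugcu
Mir6935: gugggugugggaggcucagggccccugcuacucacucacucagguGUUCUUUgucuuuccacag
Mir7036: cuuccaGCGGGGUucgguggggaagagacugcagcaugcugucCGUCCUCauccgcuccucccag
Mir6935 had 7, 1 and 4 reads and Mir7036 had 6, 3 and 1 reads. In libraries of polyadenylated RNA, such reads can come from the transcript of the host gene, and hairpin entries do not measure the mature microRNA. The highest entries of this class were Mir703 (204, 226 and 230 TPM), Mir6236 (233, 260 and 159 TPM) and Mir7688 (78.7, 111 and 88.9 TPM), the last of which had 37, 54 and 43 reads.

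The other 5 of the 20 widest ratios were those of longer genes. Gata1, the erythroid and megakaryocytic transcription factor gene, was at 15.3, 7.59 and 2.56 TPM (245, 125 and 42 reads) and Cldn13, a claudin gene, at 29.1, 12.8 and 6.71 TPM, each highest in library 1 and lowest in library 3. S100a8 and Retnlg (19.6, 63.1 and 17.0 TPM) were highest in library 2, and Xist was the fifth. The erythroid genes Car1 (17.3, 6.29 and 4.92 TPM), Epor (11.7, 4.92 and 4.43 TPM) and Klf1 and the neutrophil genes Mmp9 (10.7, 31.02 and 10.1 TPM), Chil3 (12.5, 25.1 and 9.26 TPM) and Lcn2 (90.6, 194 and 83.5 TPM) showed these same 2 patterns. Car1, Epor, Mmp9, Chil3 and Lcn2 were chosen after their values were seen.

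**Figure D5:**
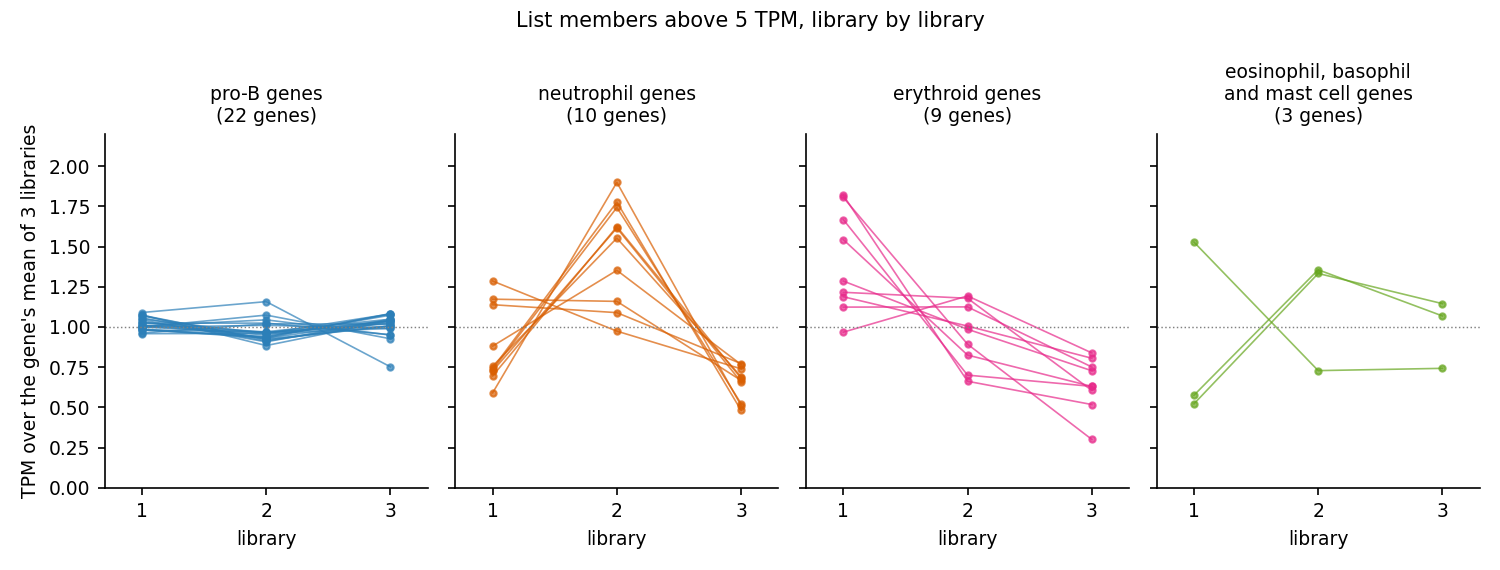
TPM divided by the gene's mean of the 3 libraries (linear axis from 0), library by library, for list members above 5 TPM, with lines joining the values of 1 gene. The 22 pro-B genes stay near 1, with the widest range for Enpep (22.2, 23.6 and 15.3 TPM). Of the neutrophil genes 7 of 10 peak in library 2, and all 9 erythroid genes are lowest in library 3.

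Sex-linked genes also differed among the libraries. Xist, which is transcribed from the inactive X chromosome, was at 1.87, 9.01 and 8.88 TPM (281, 1398 and 1374 reads). The Y-linked genes were all expressed, and each was highest in library 1, with Eif2s3y at 49.01, 35.3 and 30.4 TPM, Ddx3y at 12.7, 9.76 and 8.56 TPM, Kdm5d at 10.5, 9.05 and 8.13 TPM, and Uty at 6.26, 4.84 and 4.37 TPM. Thus, Xist was lowest and the Y-linked genes were highest in the same library, and both were present in every library.

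At the other end, the steadiest genes differed by less than 0.4% between the highest and the lowest library. Zfp428 measured 83.9 TPM in each library, Hsd17b11 105.7, 105.8 and 105.9 TPM, and F8a 16.7 TPM in each. Apbb1ip, Tbcb, Atad2b, Fntb, Sec22b, Shb and Ankrd17 completed the 10 steadiest genes, with ratios between 1.0028 and 1.0033. These are the smallest ratios among 9528 genes and rest on as few as 788 reads in all libraries together (Shb), so that counting error alone could move them. Whether these genes are more stably expressed than others was not tested.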

How the data were processed

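The 3 TPM tables of the Pax5(+/+) Meox2-cre libraries were used, and the 5 RNA-seq tables of other genotypes were not used here, as they were aligned to mm9 with other software. Per the labels, the sorted cells were pooled, and per the study's methods, RNA was selected for poly(A) and fragmented. A supplementary table lists single 50-base reads for these libraries, whereas the methods describe paired-end alignment and counting. Which applies is not settled here, and with pairs a recovered read stands for a fragment and a 50-base window for 1 end of unknown length. The deposited TPM are abundances that the authors derived from the reads assigned to a gene, its length and the library's total, after removal of rRNA reads, alignment with STAR 2.4.2a to mm10 and counting with featureCounts 1.5.0 on refGene with immunoglobulin and T cell receptor segments added. By default, reads that map to several places are not counted.

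The TPM of each library have the same sum. Values were averaged over the 3 libraries, and the SD is that among libraries. Replicate numbers follow the order of the labels and only name the libraries. Nothing in the labels says whether they come from separate mice, so the spread may be partly technical. Ranges and SDs of log2 values used log2(TPM + 0.5). The smallest lengths that gave whole reads in all 3 libraries (relative tolerance 1e-10) were found for 17281 of 17281 entries above 0, from the value of 1 read in short single-exon entries. They imply at least 19951942, 20320181 and 20650549 assigned reads. These are lower bounds, as a smallest length may be a fraction of the true one (it equalled the RefSeq length for 246 of 282 short entries). A count of 0 allows up to 3 reads, which is 0.357, 0.346 and 0.347 TPM for an entry of 1000 bases, for counting error only. No count model was run. Repeated windows are 50-base windows of the longest GENCODE vM1 coding transcript found more than once in mm9, as a property of the gene only.

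The gene lists, the families and the rule for named genes were chosen with earlier results of these data known. Named are the 20 highest entries, the 5 highest and all empty members of each list, all members of the lists of pro-B genes, transcription factors, Pax and Meox genes and sex-linked genes, the 3 highest entries of each family, the 10 highest immunoglobulin entries and predicted loci, and the 20 widest and 10 steadiest genes. A few genes that this rule selects are not reported here. Family patterns were corrected for 2 mismatched symbols after the entries were seen. Scripts ran in Python 3.11.15 with numpy 2.4.6, pandas 2.3.3 and scipy 1.17.1 and were tested on simulated data.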

Additional observations from a re-analysis of the deposited data

How the results depend on the processing

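No paired analysis was possible because all 3 libraries form 1 group and carry no replicate numbers. The number of entries above 5 TPM ranged from 9538 to 9624 under the other scalings, the median in place of the mean and the subsets of 2 libraries. It was 11812 above 1 TPM, 8368 above 10 TPM and 9364 above 5 TPM in every library. Over all gene lists, 324 members were above 5 TPM, 290 above 10 TPM and 375 above 1 TPM. The share of the 100 highest entries was 23.2% and that of all families other than cytosolic ribosomal proteins 14.1%, compared with 14.6%, after immunoglobulin and T cell receptor entries were left out, which removes part of these sums. For single lists and families, 445 of 465 values stayed within 1.5-fold (counts) or 1 SD (shares), and most of the others were lists with few expressed genes at thresholds of 1 or 10 TPM.

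The number of genes spanning more than 2-fold, 89 as given, depended on which genes were considered. It was 541 without a filter other than being above 0, 296 above 1 TPM, 15 above 20 TPM, 54 without microRNA and small nucleolar RNA entries, and 52 with at least 100 recovered reads, an alternative chosen after seeing the data. Without the neutrophil, erythroid and eosinophil, basophil and mast cell lists, also chosen after seeing the data, it was 76. Leaving out a library gave 36 (without library 1) to 55 (without library 2), and 48 without library 3, which uses a range of 2 values in place of 3. The median SD was 0.10 without a filter, 0.090 above 1 TPM and 0.072 above 20 TPM, and between 0.060 and 0.070 without a library. Pearson's r was 0.9923 and 0.9936 with pseudocounts of 0.1 and 1, 0.9940 without a filter, 0.9904 above 1 TPM, 0.9941 above 20 TPM, 0.9928 with immunoglobulin and T cell receptor entries, 0.9947 without small RNA entries, 0.9947 with at least 100 reads, and between 0.9928 and 0.9939 without a library.

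Depth limits the short and low entries, since 1 read is worth 0.119, 0.115 and 0.116 TPM in an entry of 1000 bases in libraries 1, 2 and 3 and correspondingly more in shorter ones. Groups of 3 were not tested for outlying libraries.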
